A study of Rattus norvegicus with 48 samples.

Results

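Cadherins and protocadherins were described in ribosome-bound RNA of D1 and A2a neurons of the rat nucleus accumbens. The family was taken by name: 49 rows of the deposited table had a gene name made of Cdh and a number, or of Pcdh and further letters or numbers, and 41 of them averaged at least 0.5 CPM (counts scaled by the library total) over the 48 libraries. These 41 of the 32883 genes in the table are the members. They comprise 3 type I and 13 type II classical cadherins, 2 other cadherins (Cdh13 and Cdh23), 3 delta-1 and 5 delta-2 protocadherins, Pcdh15, and 14 clustered protocadherins (Pcdha4 and 13 Pcdhb genes). Of the 8 names left out, Pcdh12 (0.387 CPM) and Cdh3 (0.272 CPM) came nearest to the limit, and the members just above it were Pcdh15 (0.883 CPM), Pcdhb11 (0.994 CPM) and Cdh23 (1.00 CPM). All 41 members passed the filter on low counts and were tested. The gamma cluster, Pcdh7 and Pcdh11x were not matched by name and were not analysed here.

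Cadherins are calcium-dependent adhesion proteins of the cell surface. Classical cadherins bind catenins inside the cell and through them the actin skeleton, and type II cadherins are expressed in different combinations by different groups of neurons. Clustered protocadherins are chosen by single neurons from a row of alternative promoters and give the neuron a surface identity, while delta-2 protocadherins can bind the WAVE complex, which drives actin branching.

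The tissue was punched from adult male and female rats of 2 genotypes, D1:Cre and A2a:Cre, named for the dopamine D1 and the adenosine A2a receptor, the latter found in the medium spiny neurons that also express the D2 receptor. All rats had 10 sessions of self-administration, and ribosomes were pulled down with antibodies to green fluorescent protein. Each genotype had 3 groups of 8 libraries: saline at withdrawal day 1, cocaine at day 1 and cocaine at day 40. With no saline group at day 40 among these samples, drug and time cannot be told apart in day 40 against saline. Cre may also mark other cells that express either gene; the route by which the tag was delivered, and each rat's sex, were not known from the labels. The p-values measure the spread between rats.

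Library totals ran from 5293586 to 55095383 counts, and the second lowest was 24538643. The 4 tested D1 markers were higher and the 4 tested A2a markers lower in D1 libraries. Summed A2a markers still had group medians of 1286 to 1436 CPM in D1 libraries, against 10022 to 10745 CPM in A2a libraries. Summed D1 markers had group medians of 1540 to 1607 CPM in D1 and 262 to 305 CPM in A2a libraries. Summed oligodendrocyte markers had group medians of 3594 to 4392 CPM over the 6 groups, and astrocyte markers 597 to 696 CPM. Which cells the members' counts came from was not tested. D1 libraries held more of 3 of 4 tested markers of interneurons, and the summed level of the 5 in the table had group medians of 860 to 1177 CPM in D1 against 195 to 231 CPM in A2a libraries. Sst, the somatostatin gene, averaged 986 ± 200.5 CPM (SD, n = 24) in D1 against 221 ± 57.2 CPM in A2a libraries. Npy, also among the 5, was at 0 in all 48, and whether its row could take reads was not tested. The part of interneurons in the differences between D1 and A2a libraries was not tested. Over the 3 conditions 15.2% of all genes were higher and 16.5% lower in D1 libraries. Of the other lists, 1 of 5 astrocyte and 1 of 4 endothelial markers were higher. Lower were 1 of 5 microglial, 2 of 4 mural and 1 of 2 choroid plexus and ependymal markers. Of the oligodendrocyte markers 0 of 5 passed, and of the precursor markers 0 of 2. In such tissue, fewer cells of a type and less RNA per cell cannot be told apart.

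A2a cocaine day 1 replicate 7, the library of 5293586 counts, stood apart in the members' values, and how it stood over all genes was not worked out. It was the highest of its group for 20 of the 41 members, and 12 exceeded 2 times the median of the other 7 libraries. Cdh6 reached 11.2 CPM in it against 0.964 to 2.39 CPM in the rest of the group. Pcdh17 reached 72.4 CPM against 16.0 to 20.5 CPM, and Pcdh1 reached 82.7 CPM against 12.0 to 22.7 CPM. In each of the other 47 libraries at most 2 members exceeded 2 times that median, though D1 saline day 1 replicate 2 was the highest of its group for 16 members. Where leaving it out changed a call named here or a count of members, both values are given.

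**Figure D1:**
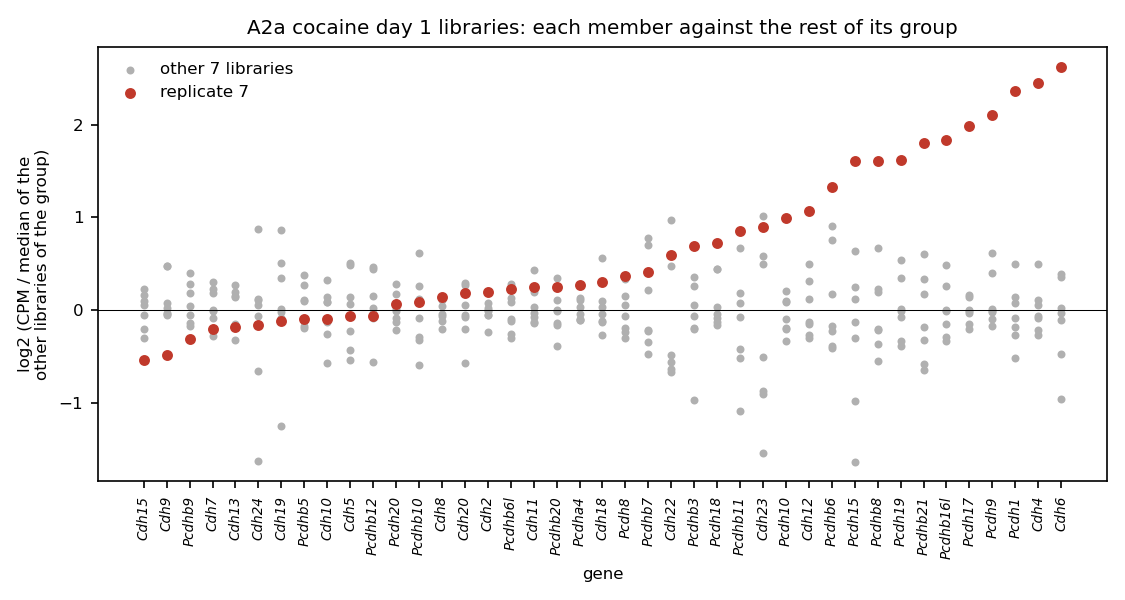
Log2 ratio of CPM to the median of the other libraries of the group (y axis) for the 41 members (x axis) in the 8 A2a cocaine day 1 libraries; red points are replicate 7 and grey points the other 7. The red points reach 6.16 times the median, for Cdh6.

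The sequences that come first are promoters of the 4 type II cadherins that passed between D1 and A2a libraries in each of the 3 conditions, 250 bases before to 50 bases after the start, 5′ to 3′, from RefSeq in build GRCr8. In the order of RefSeq genes, Cdh10, Cdh12 and Cdh18 follow each other with 0 protein-coding genes between them. Capitals mark matches on either strand to 3 motifs. The GC box, GGGCGG, is held by 34.9% of all 27457 promoters of this length. The TATA box, TATAAA, is held by 14.3% of them. The short CRE site, with the letters TGACG, is held by 22.0% of them.
Cdh8, chr19:5500216-5500515, plus strand: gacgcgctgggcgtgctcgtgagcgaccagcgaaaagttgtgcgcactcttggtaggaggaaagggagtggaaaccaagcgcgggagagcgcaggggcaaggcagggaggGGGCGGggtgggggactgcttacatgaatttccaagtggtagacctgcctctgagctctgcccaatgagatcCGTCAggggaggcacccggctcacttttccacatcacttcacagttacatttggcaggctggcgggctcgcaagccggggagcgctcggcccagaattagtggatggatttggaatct
Cdh10, chr2:70355439-70355738, plus strand: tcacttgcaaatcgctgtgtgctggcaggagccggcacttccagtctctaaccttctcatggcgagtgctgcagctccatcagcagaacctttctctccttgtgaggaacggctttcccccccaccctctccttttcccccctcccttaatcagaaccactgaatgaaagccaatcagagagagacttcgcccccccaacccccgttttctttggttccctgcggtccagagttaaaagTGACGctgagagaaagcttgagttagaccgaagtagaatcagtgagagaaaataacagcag
Cdh12, chr2:72886282-72886581, plus strand: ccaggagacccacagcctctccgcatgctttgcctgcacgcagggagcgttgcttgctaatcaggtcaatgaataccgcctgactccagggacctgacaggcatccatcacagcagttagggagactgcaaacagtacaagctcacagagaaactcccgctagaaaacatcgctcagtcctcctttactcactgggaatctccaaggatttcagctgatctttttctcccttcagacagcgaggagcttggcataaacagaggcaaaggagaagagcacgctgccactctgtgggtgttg
Cdh20, chr13:21515017-21515316, plus strand: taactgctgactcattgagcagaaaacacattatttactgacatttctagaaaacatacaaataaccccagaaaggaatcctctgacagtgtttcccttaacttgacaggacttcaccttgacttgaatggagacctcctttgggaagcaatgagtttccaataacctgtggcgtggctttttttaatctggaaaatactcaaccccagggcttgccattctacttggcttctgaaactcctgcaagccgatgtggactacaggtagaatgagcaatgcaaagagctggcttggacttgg
The Cdh8 window held a GC box and a short CRE site, the Cdh10 window held a short CRE site, and the other 2 held 0 of the 3 motifs. A match is a description, and no match says only that the letters are not in this window.

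D1 and A2a libraries differed over the 3 conditions together in 13 of 41 members (31.7%), by edgeR's quasi-likelihood test with Benjamini-Hochberg adjustment over 15580 genes. Of all genes tested 31.6% passed, so the members' share was near the background. In D1 libraries 4 members were higher (background 15.2%) and 9 lower (background 16.5%). Of the 13 type II cadherins 8 passed, 2 higher and 6 lower, against 0 of 3 type I cadherins and 0 of 13 Pcdhb genes. The median size of the log2 difference was 0.34 over type II cadherins, 0.15 over all members and 0.12 over all genes.

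**Figure D2:**
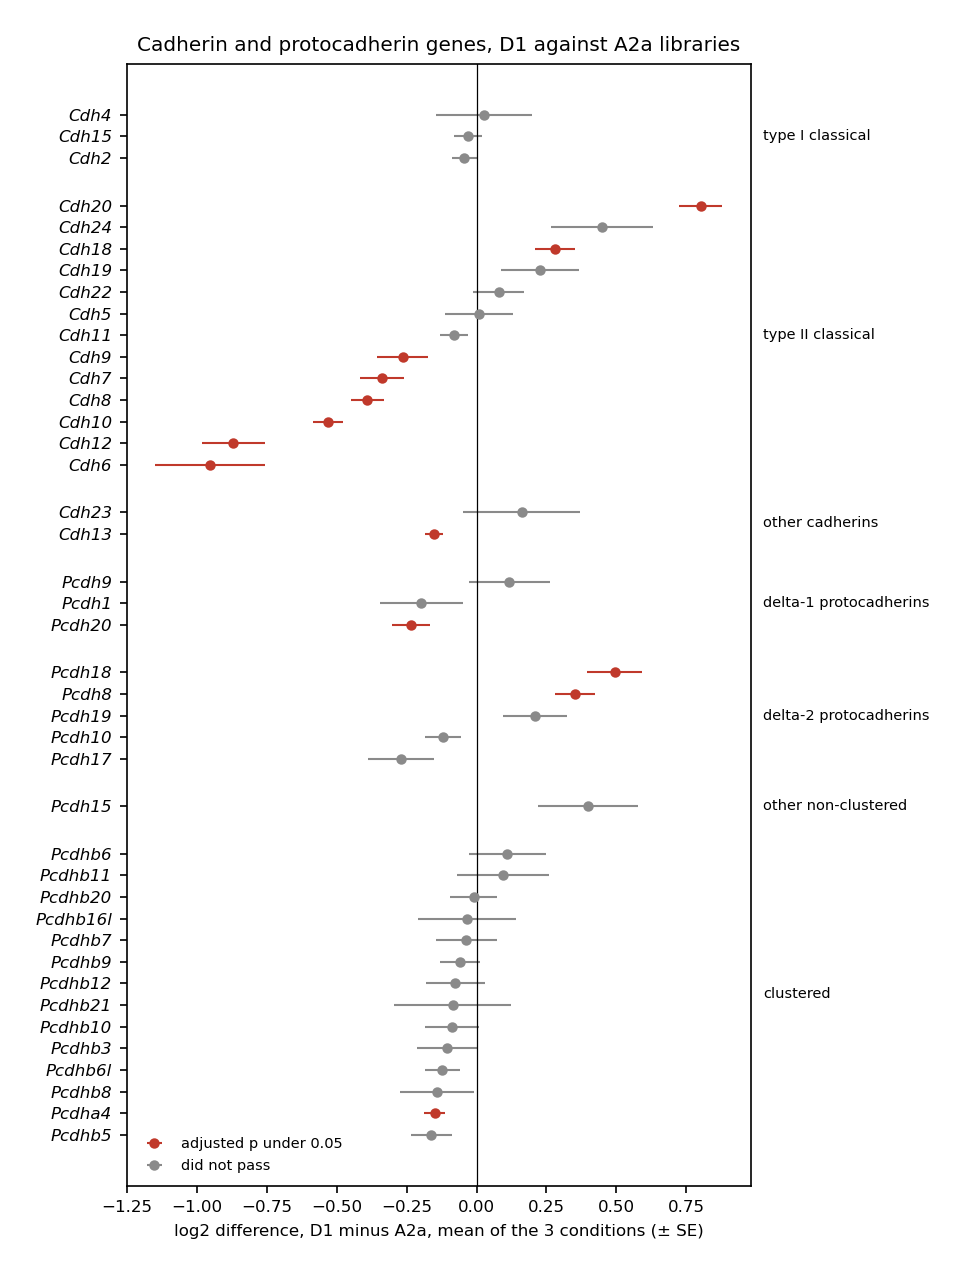
Log2 difference of D1 minus A2a libraries, mean of the 3 conditions (x axis, with SE), for the 41 members by class (y axis), from 24 libraries of each kind. Red points had an adjusted p under 0.05 and run from Cdh6 at -0.95 to Cdh20 at 0.80; 8 of the 13 are type II cadherins.

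Cdh20 had the smallest p among the members. It read 5.80 to 12.9 CPM in the 24 D1 libraries (median 8.68) and 3.40 to 6.49 CPM in the 24 A2a libraries (median 4.86). Most D1 libraries, 19 of 24, lay above every A2a library. The log2 difference was 0.80 ± 0.08 (SE), or 1.74-fold (edgeR adjusted p = 8.44e-12). It was 0.65 ± 0.13 in saline, 0.65 ± 0.14 in cocaine day 1 and 1.10 ± 0.14 in cocaine day 40 rats, each past the threshold. At day 40 all 8 D1 libraries lay above all 8 A2a libraries.

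Cdh10 differed in the other direction. It read 15.3 to 26.4 CPM in D1 (median 21.4) and 22.8 to 40.0 CPM in A2a libraries (median 31.9). In 17 of 24 D1 libraries it lay below every A2a library. The log2 difference was -0.53 ± 0.05 (edgeR adjusted p = 2.95e-11), and it passed in saline (-0.53), cocaine day 1 (-0.65) and cocaine day 40 rats (-0.41).

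Cdh12, known as brain cadherin, read 1.29 to 3.30 CPM in D1 (median 2.28) and 1.84 to 8.20 CPM in A2a libraries (median 4.10). The ranges overlapped, but all 24 D1 libraries lay below the A2a median. The log2 difference was -0.87 ± 0.11 (edgeR adjusted p = 1.87e-08), and -0.83 without A2a cocaine day 1 replicate 7. It passed in saline (-0.83), cocaine day 1 (-1.03) and cocaine day 40 rats (-0.74).

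Cdh8, linked in mice to circuits between cortex and striatum, read 41.4 to 81.9 CPM in D1 (median 62.3) and 60.8 to 103 CPM in A2a libraries (median 82.3). All 24 D1 libraries lay below the A2a median. The log2 difference was -0.39 ± 0.06 (edgeR adjusted p = 7.23e-07). At cocaine day 1 the groups did not overlap, with 57.9 to 66.3 CPM in D1 against 76.0 to 94.2 CPM in A2a libraries (-0.48 ± 0.10), and at day 40 the difference was -0.38 ± 0.10. In saline rats (-0.31 ± 0.10, edgeR adjusted p = 0.0456) the call was lost without any 1 of D1 saline replicates 3, 4 and 7 and A2a saline replicates 2, 5, 6 and 7, at adjusted p between 0.0718 and 0.122.

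With all libraries Cdh6, also called K-cadherin, had the lowest log2 difference of the family, -0.95 ± 0.20 (edgeR adjusted p = 0.000133). Without A2a cocaine day 1 replicate 7 it stood at -0.75 ± 0.15, and Cdh12 was lowest at -0.83. Cdh6 read 0.332 to 1.87 CPM in D1 (median 0.986) and 0.686 to 11.2 CPM in A2a libraries (median 1.80). At cocaine day 1 the call rested on that library: -1.22 (edgeR adjusted p = 0.0134) with it and -0.62 (edgeR adjusted p = 0.158) without it. At day 40 all 8 D1 libraries, at 0.406 to 1.15 CPM, lay below all 8 A2a libraries, at 1.19 to 2.46 CPM.

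Cdh18 was higher in D1 libraries, with 10.4 to 26.6 CPM (median 15.6) against 9.45 to 17.3 CPM (median 13.2). The ranges overlapped in most libraries, and the log2 difference was 0.28 ± 0.07 (edgeR adjusted p = 0.00154). Its neighbour Cdh12 was lower, as given above. Cdh7 was lower (-0.34 ± 0.08), as was Cdh9 (-0.26 ± 0.09), which acts at hippocampal synapses in mice and was added after its value was seen. The other 5 type II cadherins did not pass, with log2 differences from -0.08 for Cdh11 to 0.45 for Cdh24; Cdh5, of the endothelium, stood at 0.01.

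**Figure D3:**
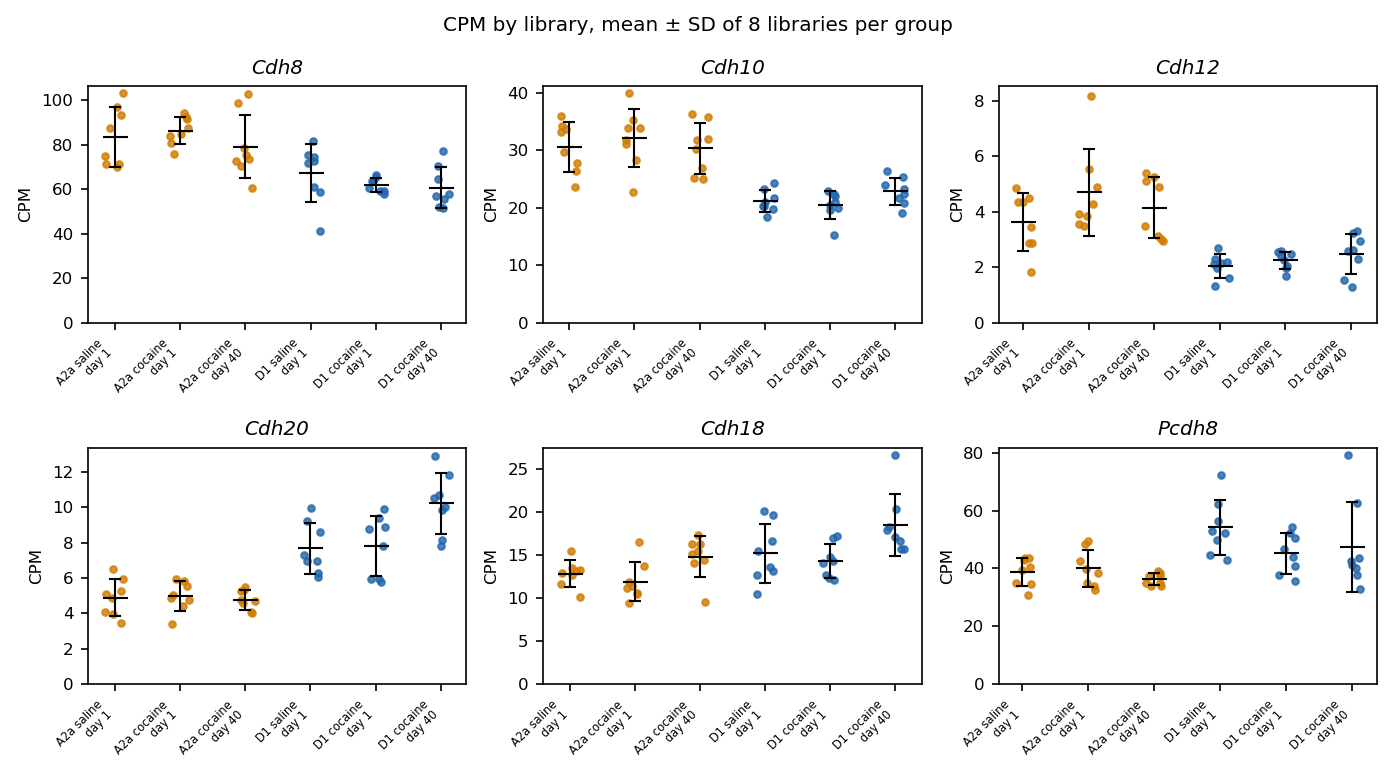
CPM on TMM-scaled totals (y axes) of 6 members in the 6 groups (x axes), 1 point per library, with mean and SD of 8 libraries in black; orange is A2a and blue is D1. Cdh8, Cdh10 and Cdh12 sit lower and Cdh20 sits higher in the D1 groups, with 7.81 to 12.9 CPM of Cdh20 in D1 cocaine day 40 libraries.

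None of the 3 type I cadherins passed. Cdh2, N-cadherin, read 85.03 to 140 CPM in D1 (median 106) and 90.6 to 127 CPM in A2a libraries (median 107), with a log2 difference of -0.04 ± 0.05 and a 95% interval from -0.13 to 0.05. Cdh4, R-cadherin, stood at 0.03 and Cdh15, the muscle cadherin, at -0.03. Cdh13, T-cadherin, is anchored by a lipid and has no part inside the cell. It read 136 to 183 CPM in D1 (median 170.1) and 147 to 220.2 CPM in A2a libraries (median 190), and all 24 D1 libraries lay below the A2a median. The log2 difference was -0.15 ± 0.03 (edgeR adjusted p = 0.000364).

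Of the delta-2 protocadherins, Pcdh18 read 7.22 to 18.6 CPM in D1 (median 12.3) and 5.03 to 12.6 CPM in A2a libraries (median 8.81). In 12 of 24 D1 libraries it lay above every A2a library, and the log2 difference was 0.49 ± 0.10 (edgeR adjusted p = 7.05e-05). Pcdh8, known in rats as arcadlin, is induced by neuronal activity and promotes the uptake of N-cadherin from the surface. It read 32.8 to 79.4 CPM in D1 (median 45.7) and 30.7 to 49.6 CPM in A2a libraries (median 37.8), a log2 difference of 0.35 ± 0.07 (edgeR adjusted p = 0.000117). It passed in saline (0.48 ± 0.12) and at cocaine day 40 (0.39 ± 0.12), the latter not without D1 cocaine day 40 replicate 2 (adjusted p = 0.0605) or replicate 7 (adjusted p = 0.115).

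The remaining delta-2 members did not pass. Pcdh10, which guides striatal axons in mice, stood at -0.12, Pcdh17, of synapses between cortex and basal ganglia in mice, at -0.27, and Pcdh19, an epilepsy gene, at 0.21. Without A2a cocaine day 1 replicate 7, Pcdh17 stood at -0.13 and Pcdh19 passed (0.29 ± 0.10, edgeR adjusted p = 0.0182), and without D1 cocaine day 40 replicate 1 Pcdh17 passed (-0.30, edgeR adjusted p = 0.0436). Pcdh15, the partner of Cdh23 in hair-cell tip links, stood at 0.40, and passed without A2a cocaine day 1 replicate 7 (0.48 ± 0.17, edgeR adjusted p = 0.0261). It was added after its value was seen. In all, 15 members passed without that library, among them the 13 that passed with it.

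Of the delta-1 protocadherins, Pcdh20 read 29.6 to 54.2 CPM in D1 (median 41.9) and 30.0 to 63.9 CPM in A2a libraries (median 50.4). The ranges overlapped widely, and the log2 difference was -0.23 ± 0.07 (edgeR adjusted p = 0.00547). Pcdh9 stood at 0.12 and Pcdh1 at -0.20, or at 0.24 and -0.02 without A2a cocaine day 1 replicate 7.

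The clustered protocadherins share much of their sequence, so the split of their counts is uncertain. Pcdha4 was the 1 alpha name in the table, and whether its counts came from Pcdha4 alone was not tested. It read 96.8 to 151 CPM in D1 (median 129) and 120.3 to 178 CPM in A2a libraries (median 142). The ranges overlapped, and the log2 difference was -0.15 ± 0.04 (edgeR adjusted p = 0.00132). The 13 Pcdhb genes differed by -0.16 (Pcdhb5) to 0.11 (Pcdhb6), and 11 of them lay below 0 with all libraries. Without A2a cocaine day 1 replicate 7, Pcdhb16l (0.06), Pcdhb20 (0.002) and Pcdhb21 (0.003) moved from below to above 0. By edgeR's quasi-likelihood test 0 of 13 passed, 1 had an unadjusted p under 0.05, and the lowest adjusted p was 0.0845.

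The Pcdhb promoters of RefSeq share a short run of letters, shown because it is common to these genes and rare elsewhere. Counted over all runs of 10 letters, GGTGGCGCTG was in the most member promoters, 10 of 12 (83.3%). On either strand it was in 0.240% of all 27457 promoters and in 0 of 20 members outside the clusters. The run was chosen on these promoters, so its share in them is a description. It stands in capitals in windows with 15 bases on each side, from 3 genes where it lies near the start and 2 where it lies far from it.
Pcdhb5, chr18:29302399-29302438, plus strand: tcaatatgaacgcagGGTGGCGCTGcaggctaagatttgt
Pcdhb7, chr18:29328993-29329032, plus strand: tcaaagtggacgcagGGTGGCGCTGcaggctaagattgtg
Pcdhb9, chr18:29379243-29379282, plus strand: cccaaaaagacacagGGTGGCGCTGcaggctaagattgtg
Pcdhb6, chr18:29320147-29320186, plus strand: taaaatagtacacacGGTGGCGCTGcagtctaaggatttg
Pcdhb8, chr18:29339253-29339292, plus strand: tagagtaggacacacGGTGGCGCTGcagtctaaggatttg
The run began 52 bases before the start in Pcdhb5 and Pcdhb9, 46 in Pcdhb7, 229 in Pcdhb6 and 208 in Pcdhb8.

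Within single conditions, 6 of 41 members (14.6%) passed in saline (background 8.13%), 8 of 41 (19.5%) in cocaine day 1 (background 11.1%) and 6 of 41 (14.6%) in cocaine day 40 rats (background 20.4%). Higher in D1 libraries were 2 members in saline (background 4.12%), 2 at cocaine day 1 (background 5.53%) and 2 at cocaine day 40 (background 10.1%). Lower were 4 (background 4.01%), 6 (background 5.56%) and 4 (background 10.3%). Cdh8, Cdh10, Cdh12 and Cdh20 passed in all 3, which share no libraries but share the estimate of the spread of 1 fit. With only the groups compared, Cdh8 in saline did not pass (edgeR adjusted p = 0.130). At cocaine day 1 Pcdh18 (0.63 ± 0.17), Pcdha4 (-0.24 ± 0.06) and Cdh7 (-0.48 ± 0.14) passed as well, the last named after its value was seen, and so did Cdh6 (-1.22). Without A2a cocaine day 1 replicate 7 the count there was again 8, of which 7 were shared: Cdh6 did not pass (edgeR adjusted p = 0.158) and Cdh13 did (-0.18, edgeR adjusted p = 0.0494). At cocaine day 40 the count was 8 without that library, among them the 6 called with it. Markers of other cells differed at day 40 as well: 3 of 5 microglial markers (Csf1r -0.75, Cx3cr1 -0.76, Itgam -1.42) and 2 of 4 mural markers (Rgs5 -0.63, Dcn -0.90) were lower in D1 libraries. Summed microglial markers ran from 38.1 to 62.0 CPM in D1 and from 46.1 to 103 CPM in A2a libraries, summed mural markers from 12.7 to 17.9 CPM and from 9.04 to 25.0 CPM, and their part in the members' values was not tested. In saline rats Cdh13 passed (-0.20 ± 0.06, edgeR adjusted p = 0.0199), but not without D1 saline replicate 4 (adjusted p = 0.0647) or A2a saline replicate 2 (adjusted p = 0.0523). In the sample descriptions a number in the middle was 85 for every D1 and 88 for every A2a library at day 40. It and the neuron type therefore cannot be told apart there. The comparison over the 3 conditions together takes in day 40 and carries the same limit, and the number was not a term in it. At day 1 the number was 89, 91 or 92. It thus cannot be told apart from time in any comparison of day 40 with day 1 or saline, nor in the withdrawal day interaction. With this number as a term in a fit of the day 1 libraries alone, 4 members passed in saline and 9 at cocaine day 1. That fit changed the libraries as well as the terms, and in it Cdh8 and Cdh13 did not pass in saline.

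Partners of the cadherins were read from lists over the 3 conditions, where 15.2% of all genes were higher and 16.5% lower in D1 libraries. Of 12 tested catenins and relatives 1 was higher and 3 were lower, 33.3% in all against 31.6% of all genes. Ctnnd2, delta-catenin, stood at 107 ± 6.51 CPM (SD, n = 24) in D1 against 128 ± 8.92 CPM in A2a libraries (-0.25 ± 0.03, edgeR adjusted p = 9.28e-11). Ctnnb1, beta-catenin, differed by -0.15, Ctnna1, alpha-catenin, by -0.11, and Pkp1, a plakophilin of desmosomes, by 0.54. Of 9 WAVE complex genes 5 were lower and 0 higher (55.6% against 31.6% of all genes), with a median of -0.20 against -0.00 over all genes. Wasf1, the WAVE1 gene, stood at 474 ± 44.7 CPM in D1 against 573 ± 31.2 CPM in A2a libraries (-0.27 ± 0.03, edgeR adjusted p = 3.93e-09).

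The list of other cadherin-repeat proteins also held Fjx1, which is not itself one of them. Of the 16 tested genes of this list 5 were higher and 3 lower (50% against 31.6% of all genes). Cdhr1, known from photoreceptors, stood at 60.9 ± 12.5 CPM (SD, n = 24) in D1 against 23.5 ± 5.54 CPM in A2a libraries (1.38 ± 0.09, edgeR adjusted p = 5.45e-18). Celsr1 (0.39) and Celsr2 (-0.28), both of the flamingo family, passed in opposite directions. Of 7 proteases that cut cadherins 1 was higher (Ncstn, 0.07) and 0 lower (14.3% against 31.6%). Of 12 chromatin factors known at the clustered loci 5 were lower and 0 higher (41.7% against 31.6%), with Ctcf at -0.12 ± 0.03.

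Cocaine at day 1 was compared with saline within each neuron type. By edgeR's quasi-likelihood test 0 of 41 members passed in D1 (background 0%) and 0 of 41 in A2a libraries (background 0.0706%), 1 and 3 members had an unadjusted p under 0.05, and DESeq2 called 0 in both. Pcdh8 had the smallest p in D1 libraries, with 35.5 to 54.4 CPM after cocaine (median 45.3) and 42.8 to 72.3 CPM after saline (median 52.7). The groups overlapped (-0.26 ± 0.12, unadjusted p = 0.0381 and edgeR adjusted p = 1.00). In A2a libraries Pcdh10 had the smallest p, with 52.9 to 124 CPM after cocaine (median 64.3) and 44.1 to 69.9 CPM after saline (median 51.5). The groups overlapped (0.30 ± 0.11, edgeR adjusted p = 0.651), and the log2 difference was 0.15 without replicate 7. That library also held the difference of Cdh6, 0.69 with it and 0.09 without it, and 0 members had an unadjusted p under 0.05 without it. The 95% interval of Cdh2 ran from -0.19 to 0.11 in D1 and from -0.22 to 0.09 in A2a libraries.

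Cocaine day 40 was compared with cocaine day 1, where the number in the sample descriptions also differed between the days. By edgeR's quasi-likelihood test 0 of 41 members passed in D1 (background 1.85%) and 0 of 41 in A2a libraries (background 0.263%), 6 and 7 had an unadjusted p under 0.05 (8 and 3 without A2a cocaine day 1 replicate 7), and DESeq2 called 1 and 0. The DESeq2 call was Cdh23, the tip-link cadherin, in D1 libraries (DESeq2 adjusted p = 0.0455). It read 0.659 to 2.44 CPM at day 40 (median 1.78) and 0.127 to 1.31 CPM at day 1 (median 0.880), on 26 to 90 and 5 to 57 counts. The groups overlapped, with 6 of 8 day 40 libraries above all day 1 libraries (1.13 ± 0.36, edgeR adjusted p = 0.0864). In A2a libraries the log2 difference of Cdh23 was 0.18.

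Cdh18 was next in D1 and first in A2a libraries. In D1 it read 15.6 to 26.6 CPM at day 40 (median 17.5) and 12.1 to 17.2 CPM at day 1 (median 14.2), a log2 difference of 0.37 ± 0.12 (edgeR adjusted p = 0.0971). In A2a it read 9.52 to 17.3 CPM (median 15.3) and 9.45 to 16.5 CPM (median 11.3), a log2 difference of 0.32 ± 0.12 (edgeR adjusted p = 0.284). The days overlapped in both. Cdh11, OB-cadherin, followed in A2a libraries at -0.22 ± 0.09 (edgeR adjusted p = 0.290).

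Cocaine day 40 against saline shares its day 40 libraries with the comparison of days, and the description number differed here too. By edgeR's quasi-likelihood test 0 of 41 members passed in D1 (background 2.61%) and 0 of 41 in A2a libraries (background 0%), 6 and 1 had an unadjusted p under 0.05 (6 and 2 without A2a cocaine day 1 replicate 7), and DESeq2 called 1 and 0. The DESeq2 call was Cdh20 in D1 libraries (DESeq2 adjusted p = 0.0428), with 7.81 to 12.9 CPM at day 40 (median 10.3) and 6.05 to 9.98 CPM after saline (median 7.15). In 5 of 8 day 40 libraries it lay above all saline libraries (0.41 ± 0.13, edgeR adjusted p = 0.0804), and it passed without D1 saline replicate 2 (adjusted p = 0.0436) or replicate 3 (adjusted p = 0.0490). In A2a libraries it read 4.03 to 5.52 CPM at day 40 and 3.45 to 6.49 CPM after saline. Of 5 microglial markers 2 were lower in the D1 comparison, and their summed level ran from 38.1 to 62.0 CPM at day 40 and from 50.5 to 124 CPM after saline. Their part in the members' values was not tested.

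The difference in response between neuron types was tested directly. By edgeR's quasi-likelihood test 0 of 41 members passed for cocaine (background 0.00642%) and 0 of 41 for withdrawal day (background 0.0642%), 0 and 1 had an unadjusted p under 0.05 (0 and 2 without A2a cocaine day 1 replicate 7), and DESeq2 called 0 in both. With all libraries the 1 member was Cdh20, whose log2 difference of day 40 from day 1 was 0.39 in D1 and -0.05 in A2a libraries (difference 0.44 ± 0.19, unadjusted p = 0.0243 and edgeR adjusted p = 0.382).

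**Figure D4:**
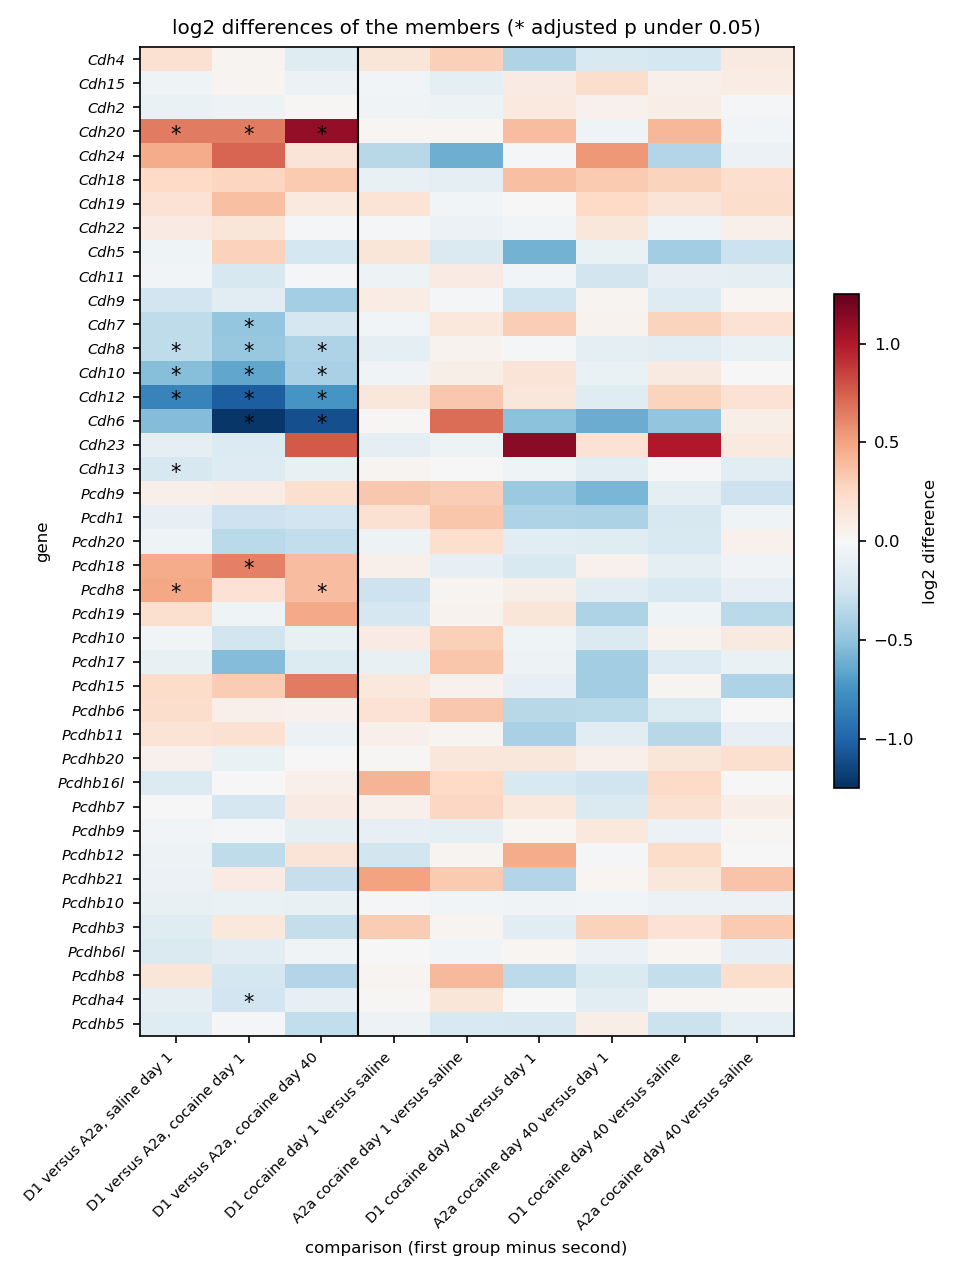
Log2 differences (colour, first group minus second) of the 41 members (y axis) in 9 comparisons (x axis), with asterisks at an adjusted p under 0.05. Cdh8, Cdh10, Cdh12 and Cdh20 have an asterisk in each of the 3 comparisons of D1 with A2a, and 0 members have one in the 6 comparisons on cocaine or withdrawal.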

How the data were processed

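Ribosome-bound RNA of 48 rat brains was sequenced, 8 libraries in each of 6 groups. The authors deposited 1 table of raw counts per gene with gene names. The tools named are STAR, SAMtools, Trimmomatic and bcl2fastq, with build Rnor_6.0, per the submitters' processing notes. Their versions, the annotation, the counter and whether strand was used: not given in the sources used here. Reads of overlapping genes therefore cannot be told apart.

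Membership used CPM on library totals, and printed CPM used TMM-scaled totals. One edgeR 4.0.16 quasi-likelihood model (R 4.3.3; TMM, robust, minimum count 10) with a term for each group took in all libraries, with p-values adjusted over all 15580 genes tested and called at 0.05. The SE is the log2 difference over the square root of F. The scripts were tested on simulated data. None of 168 within-group pairs of libraries was identical. At 1 CPM a value rests on at least 24.5 counts in 47 libraries, so low members carry more counting error. Alternatives were DESeq2 1.42.0, RLE size factors, no filter, a replicate block, only the groups compared, and each library left out. Another took the description number as a covariate in the day 1 libraries alone.

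Members and lists were chosen with earlier results of these data known. Named members were, over all conditions, the 8 called with the smallest p in each direction; elsewhere up to 6 called, or the 2 with the smallest p where none passed; and a panel. RefSeq promoters matched 33 of 41 members.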

Additional observations from a re-analysis of the deposited data

Results flagged for a closer look

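In 12 of 126 groups of 8 libraries looked at for the named members, 1 library lay far from the rest; chance marks about 1 in 20 groups. Of these, 6 were A2a cocaine day 1 replicate 7, the library of 5293586 counts, each time the highest: 11.2 CPM of Cdh6 (next 2.39), 8.20 CPM of Cdh12 (next 5.53), 18.1 CPM of Pcdh9 (next 6.48), 124 CPM of Pcdh10 (next 71.7), 72.4 CPM of Pcdh17 (next 20.5) and 9.34 CPM of Pcdh19 (next 4.43).

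Among D1 cocaine day 40 libraries, replicate 7 was far above the rest with 26.6 CPM of Cdh18, replicate 2 with 50.1 CPM of Pcdh20, and replicate 1 with 38.1 CPM of Cdh11 and 23.5 CPM of Pcdh17. D1 cocaine day 1 replicate 6 was far below the rest with 15.3 CPM of Cdh10, and A2a cocaine day 40 replicate 2 with 9.52 CPM of Cdh18.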

How the results depend on the processing

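DESeq2 called 1 member in D1 cocaine day 40 against day 1 and 1 in D1 cocaine day 40 against saline, where edgeR called 0; the cause was not tested. With each library left out in turn, the members called numbered 13 to 15 over the 3 conditions, 4 to 7 in saline, 8 to 10 at cocaine day 1 and 5 to 9 at cocaine day 40 for D1 against A2a, 0 to 1 for D1 cocaine day 40 against saline, and 0 in the other 7 comparisons. No called member that the naming rule chose in a comparison changed direction there under the alternatives run. Cdh9 over the 3 conditions, and Cdh6 and Cdh7 at cocaine day 1, were not followed in this way. They kept their direction without A2a cocaine day 1 replicate 7. Cdh8 in saline did not pass without the filter (edgeR adjusted p = 0.0728), with only the groups compared (0.130) or with the description number (0.0906), nor Cdh13 in saline with that number (0.0958) and Pcdh8 at cocaine day 40 with only the groups compared (0.0625). Over all genes, DESeq2 called 519 against edgeR's 289 in D1 day 40 against day 1, 639 against 406 in D1 day 40 against saline, 69 against 41 in A2a day 40 against day 1, and 121 against 10 for the withdrawal day interaction. With only the groups compared, edgeR called 136 and 5 genes in day 40 against day 1 of D1 and A2a libraries and 0 for the interactions; A2a cocaine day 1 against saline gave 0 there, 27 without the filter and 1 by DESeq2, against 11.

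With a replicate block, 14, 5, 8 and 7 members were called over all conditions, in saline, at cocaine day 1 and at cocaine day 40, and 0 in the rest; Cdh8 in saline had an edgeR adjusted p of 0.0504. Libraries with the same replicate number had a median correlation of 0.0495 (28 of 120 pairs over 0.1), against -0.00461 for different numbers. Of 48 libraries 18 correlated best with their own number, and the share due to chance was not worked out. These values do not settle whether libraries of 1 number share a factor. The labels state no pairing, so the main fit used none and the block is given as an alternative. Depth limits the members near 1 CPM, such as Cdh6, Cdh23 and Pcdh15.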
